A study of Mus musculus with 6 samples.

Results

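The genes described here are 10 grouped as replication-coupled chromatin and DNA methylation genes: Dnmt1, Uhrf1, Hells, Cbx5, Ezh2, Suz12, Eed, Chaf1a, Chaf1b and Hmgb2. They were picked by symbol from the 14788 gene symbols of the count table, with the difference between the genotypes already known, so their differences between the groups are given as descriptions. Where a call is given for one of them, it comes from the fit over all genes and is no independent test of that gene. All 10 were in the table, and all 10 were among the 11504 genes that passed the filter on low counts. The libraries were made from type-2 conventional dendritic cells (cDC2s) of mouse spleen, a dendritic cell type best known for priming CD4 T cells. There were 6 libraries, 3 made from Arhgef1-/- cells and 3 from wild-type (WT) cells, all of the C57BL/6 strain and with no treatment named. Arhgef1 encodes a guanine nucleotide exchange factor by which G12- and G13-coupled receptors switch on RhoA. The sources used here give neither the age of the mice nor the sort of the cells, nor whether all cells lacked Arhgef1.

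When DNA is copied, the new strand carries no methyl groups and the nucleosomes are diluted between the daughter duplexes. UHRF1 binds hemimethylated CpG sites and brings in DNMT1, the methyltransferase that copies the mark, while HELLS remodels nucleosomes so that methylation can reach packed DNA. CAF-1, with the subunits CHAF1A and CHAF1B, loads new histones at the fork, PRC2, with the core subunits EZH2, SUZ12 and EED, restores trimethylation of histone H3 at lysine 27, and HP1 alpha, encoded by Cbx5, binds histone H3 methylated at lysine 9. HMGB2 is a DNA-bending protein that is abundant in dividing cells.

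Promoter sequences are shown here because many genes of S phase are known to be bound there by E2F factors. Each window ran from 250 bases before to 50 bases after a start annotated by RefSeq on GRCm38.p6, 300 bases in all, and was searched on both strands for the E2F-type strings TTTCCCGC, TTTCGCGC, TTTGCCGC and TTTGGCGC. A match was found in 5 of the 10 genes, Dnmt1, Uhrf1, Hells, Ezh2 and Suz12, against 4.34% of the 10308 genes of the table that had a window. Capitals mark the matches, and each sequence is written 5′ to 3′ on the strand of its gene.
Dnmt1, chr9:20952574-20952873 (- strand): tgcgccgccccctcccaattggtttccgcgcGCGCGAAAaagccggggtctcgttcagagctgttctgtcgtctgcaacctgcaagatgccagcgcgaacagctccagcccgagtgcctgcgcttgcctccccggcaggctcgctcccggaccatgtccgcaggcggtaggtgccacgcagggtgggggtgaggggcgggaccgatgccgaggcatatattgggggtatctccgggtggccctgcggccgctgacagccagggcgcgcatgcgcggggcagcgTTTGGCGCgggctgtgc
Uhrf1, chr17:56304063-56304362 (+ strand): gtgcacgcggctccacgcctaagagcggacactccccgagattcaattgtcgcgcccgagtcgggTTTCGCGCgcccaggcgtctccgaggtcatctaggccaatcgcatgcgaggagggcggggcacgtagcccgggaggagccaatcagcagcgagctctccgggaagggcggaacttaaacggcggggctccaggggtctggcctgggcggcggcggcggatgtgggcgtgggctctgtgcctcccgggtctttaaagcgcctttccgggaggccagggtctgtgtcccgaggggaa
Hells, chr19:38930740-38931039 (+ strand): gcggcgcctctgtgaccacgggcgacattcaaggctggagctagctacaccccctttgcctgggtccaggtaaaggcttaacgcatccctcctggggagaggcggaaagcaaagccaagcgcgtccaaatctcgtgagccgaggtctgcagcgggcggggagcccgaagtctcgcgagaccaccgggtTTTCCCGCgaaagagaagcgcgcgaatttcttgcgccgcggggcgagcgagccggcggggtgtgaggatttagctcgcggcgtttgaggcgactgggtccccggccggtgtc
Ezh2, chr6:47594981-47595280 (- strand): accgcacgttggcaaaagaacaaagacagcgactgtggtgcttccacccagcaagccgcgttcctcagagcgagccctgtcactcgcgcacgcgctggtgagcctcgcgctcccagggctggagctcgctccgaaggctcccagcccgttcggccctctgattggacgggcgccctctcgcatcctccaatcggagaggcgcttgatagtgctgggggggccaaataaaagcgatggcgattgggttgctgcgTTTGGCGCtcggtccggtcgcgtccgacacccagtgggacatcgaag
Suz12, chr11:79992856-79993155 (+ strand): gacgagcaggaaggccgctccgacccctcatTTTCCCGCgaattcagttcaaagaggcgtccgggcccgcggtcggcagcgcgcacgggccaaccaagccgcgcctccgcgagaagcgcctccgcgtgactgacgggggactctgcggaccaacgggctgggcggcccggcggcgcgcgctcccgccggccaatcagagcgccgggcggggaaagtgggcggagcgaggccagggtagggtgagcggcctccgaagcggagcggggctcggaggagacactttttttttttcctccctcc
In Dnmt1, the upstream match is on the reverse strand and starts 219 bases upstream of this start, and the other starts 33 bases downstream. The Ezh2 match starts 3 bases downstream of the start, and the Hells, Uhrf1 and Suz12 matches start 62, 185 and 219 bases upstream. Dnmt1 had 3 windows and Uhrf1 and Cbx5 had 2 each, and in Dnmt1 and Uhrf1 the match lay in only 1 of them. The CHR string TTTGAA was in windows of 4 genes (Dnmt1, Suz12, Eed and Hmgb2), against 14.6% of genes in the table, and CCAAT in 8, against 42.6%. These matches describe letters and do not show binding. Of the 5 genes with an E2F-type match, 4 were called higher in the knockout, all but Suz12. Of the 5 without one, 4 were called higher, all but Eed. Only exact matches to the listed strings were searched, so a gene without one may still hold an E2F site. The 10 genes were chosen with this contrast known, so these counts cannot show whether matches and calls are linked.

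The deposited table held total counts of 8408325, 9595782 and 11714365 in knockout replicates 1, 2 and 3, and of 10702215, 8724642 and 8546267 in WT replicates 1, 2 and 3. Arhgef1 itself, which checks the labels, averaged 129 ± 14.8 CPM (counts scaled to the TMM-normalised library size) in the knockout and 284 ± 35.6 CPM in WT (SD, n = 3 each), and every knockout value lay below every WT value. The source names put all knockout libraries in lane 2 and all WT libraries in lane 1, under different run names, so lane, run name and genotype cannot be told apart. The labels do not say that replicates came from separate mice, so p-values cover only the spread among these libraries, which may be technical. Of the listed cDC2 markers, Itgax, Flt3 and Zbtb46 averaged 1262, 300 and 74.4 CPM in the knockout and 1406, 351 and 84.6 CPM in WT. None of these 3 was called, but they do not stand for the whole list. Of its 11 tested genes, 5 (Sirpa, Cd4, Clec4a4, Cd209a and H2-Ab1) were called lower in the knockout and none higher. For 8 of the 11, the groups did not overlap and the knockout was the lower one. Clec10a was near absent at 0.278 CPM in the knockout and 0.390 CPM in WT.

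In the knockout, 8 of the 10 genes were called higher and the other 2, Suz12 and Eed, were not called (edgeR quasi-likelihood test, Benjamini-Hochberg adjusted p under 0.05 over all genes). Over all genes tested, 5.09% were called higher and 4.58% lower. Every knockout library lay above every WT library for 9 of the 10 genes, all but Eed. Over all genes tested, 13.7% had every knockout library above and 13.5% every knockout library below. The contrast was used in choosing the 10 genes, so these counts are not evidence about them. The median log2 fold change, knockout over WT, was 0.72 over the 10 genes and 0.00 over all genes tested. In bulk RNA, a larger share of cells expressing a gene and more RNA per cell cannot be told apart.

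**Figure D1:**
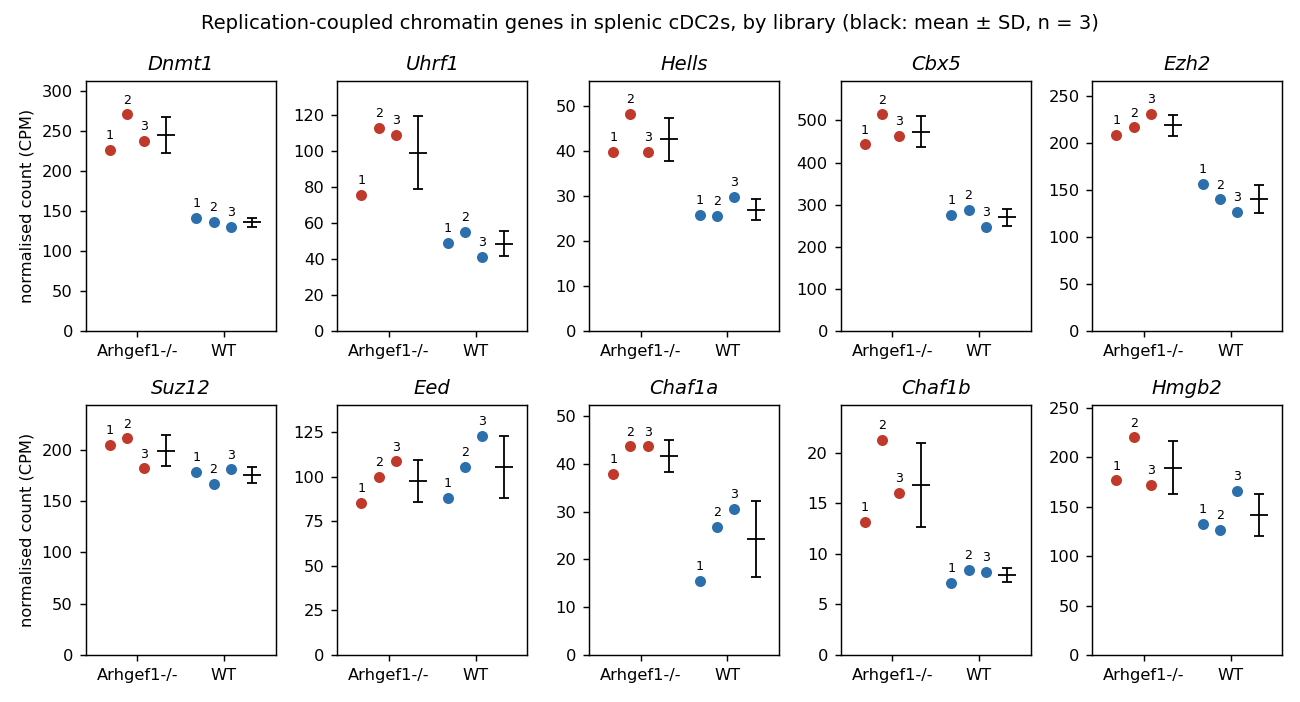
Normalised counts (CPM, linear axis from 0) of the 10 genes in each Arhgef1-/- library (red, left) and each WT library (blue, right), with the replicate number above each point and the mean ± SD of 3 libraries in black. The groups are apart in every panel but Eed, and in Suz12 by a narrow gap.

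The maintenance methylation genes were higher in every knockout library. Dnmt1 (ENSMUSG00000004099.16, mm10 chr9:20907209-20959888) had 227, 271 and 238 CPM in knockout replicates 1, 2 and 3, against 141, 136 and 130 CPM in WT replicates 1, 2 and 3. The groups were far apart, since the lowest knockout library stood well above the highest WT library, and the WT libraries hardly differed. The log2 fold change was 0.85 ± 0.10 (SE), a ratio of means of 1.80, from 1947 to 2788 reads per knockout library and 1105 to 1475 per WT library. Uhrf1 (ENSMUSG00000001228.14, mm10 chr17:56303321-56323486) had 75.8, 113 and 109 CPM in the knockout, against 49.0, 55.3 and 41.4 CPM in WT. Knockout replicate 1 was the lowest of its group and still lay above all WT libraries. The log2 fold change of Uhrf1 was 1.03 ± 0.16 (SE), the second largest of the 10. Hells (ENSMUSG00000025001.11, mm10 chr19:38930915-38971051) had 39.8, 48.2 and 39.8 CPM in the knockout, against 25.8, 25.6 and 29.7 CPM in WT. Here knockout replicate 2 stood out above the other two knockout libraries, and the groups did not overlap. The log2 fold change was 0.66 ± 0.16 (SE), and it was 0.56 without knockout replicate 2, 0.62 without WT replicate 1 and 0.62 without WT replicate 2, and in each of these 3 fits Hells was not called.

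Of 18 tested genes of DNA methylation and demethylation, 3 rose and 15 did not pass the test, with a median log2 fold change of 0.11. Lig1, the ligase that joins Okazaki fragments and that UHRF1 is known to bind, averaged 107 ± 20.6 CPM in the knockout and 61.6 ± 7.71 CPM in WT (SD, n = 3 each). It was higher by 0.80 ± 0.14 on the log2 scale (SE, edgeR adjusted p = 0.00146). Tet1, a dioxygenase that oxidises methylcytosine, averaged 54.5 ± 5.32 CPM in the knockout and 34.0 ± 3.17 CPM in WT (edgeR adjusted p = 0.00682), whereas its relatives Tet2 and Tet3 had log2 fold changes of 0.00 each. Cdca7, the partner that activates HELLS, averaged 17.1 ± 1.66 CPM in the knockout and 8.24 ± 2.28 CPM in WT (edgeR adjusted p = 0.0189). The Cdca7 call was lost without knockout replicate 2, WT replicate 1 or WT replicate 2, where its log2 fold change was 0.99, 0.87 and 1.07, against 1.06 with all libraries.

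The de novo methyltransferase genes and the Uhrf1 paralog Uhrf2 did not pass the test. Dnmt3a, which methylates unmethylated sites, averaged 654 ± 75.6 CPM in the knockout and 591 ± 37.3 CPM in WT, with a log2 difference of 0.15 ± 0.09 (SE, edgeR adjusted p = 0.351). Dnmt3b, the other de novo enzyme, averaged 9.49 ± 1.61 CPM in the knockout and 5.90 ± 0.14 CPM in WT, with a log2 difference of 0.68 ± 0.31 (SE, edgeR adjusted p = 0.205). Every knockout library lay above every WT library for Dnmt3b, and its log2 difference was close to those of Hells and Ezh2 but had a larger SE. Uhrf2 averaged 78.4 ± 7.97 CPM in the knockout and 75.9 ± 4.95 CPM in WT, with a log2 difference of 0.05 ± 0.12 (SE, edgeR adjusted p = 0.881), and without knockout replicate 2 its direction turned, to -0.04. Within a library, the ratio of Uhrf1 to Uhrf2, each as CPM per kilobase of merged exons, was 2.03, 2.61 and 3.04 in knockout replicates 1, 2 and 3, against 1.36, 1.37 and 1.14 in WT replicates 1, 2 and 3. The ratio of Dnmt1 to Dnmt3a was 0.860, 0.973 and 0.726 in the knockout, against 0.554, 0.485 and 0.522 in WT. Both ratios were higher in every knockout library, although Dnmt1 stayed below Dnmt3a per kilobase in each of the 6 libraries. For these and the other ratios between genes, the share of all gene pairs without overlap was not counted. Their numerators were chosen with the contrast known, so a lack of overlap is a description only. The ratio of Uhrf1 to Dnmt1 overlapped between the groups, at 0.579, 0.723 and 0.795 in the knockout and 0.600, 0.703 and 0.550 in WT.

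The 3 core subunits of PRC2 did not move together. Ezh2 (ENSMUSG00000029687.16, mm10 chr6:47530139-47595341), the methyltransferase, had 209, 217 and 231 CPM in the knockout, against 156, 140 and 127 CPM in WT. The groups were well apart and the log2 fold change was 0.63 ± 0.10 (SE). Suz12 (ENSMUSG00000017548.15, mm10 chr11:79993106-80034123), which holds the complex together, had 204, 211 and 182 CPM in the knockout, against 178, 167 and 181 CPM in WT. Knockout replicate 3 was only just above the highest WT library, and the log2 fold change of 0.18 ± 0.09 (SE) was not called. Eed (ENSMUSG00000030619.9, mm10 chr7:89954654-89980983), which reads the trimethyl mark, had 85.1, 99.6 and 109 CPM in the knockout, against 87.8, 105 and 123 CPM in WT. The Eed values of the groups overlapped almost completely. Its log2 fold change was -0.10 ± 0.13 (SE), was not called, and was 0.02 without WT replicate 3.

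The balance within PRC2, measured inside each library, followed from these values. The ratio of Ezh2 to Eed per kilobase was 1.41, 1.25 and 1.22 in the knockout, against 1.02, 0.763 and 0.590 in WT. The ratio of Ezh2 to Suz12 was 0.757, 0.761 and 0.942 in the knockout, against 0.648, 0.623 and 0.519 in WT. Every knockout library was above every WT library in both ratios, by a mean of 0.74 and 0.46 on the log2 scale. Ezh2 was chosen with the contrast known, and the share of all gene pairs without overlap was not counted. The ratio of Suz12 to Eed, 1.86, 1.64 and 1.30 in the knockout and 1.57, 1.23 and 1.14 in WT, overlapped between the groups. Ezh1, the alternative methyltransferase of PRC2 that is known from cells that do not divide, averaged 56.5 ± 9.10 CPM in the knockout and 69.9 ± 3.49 CPM in WT, with a log2 difference of -0.30 ± 0.14 (SE, edgeR adjusted p = 0.210). The ratio of Ezh2 to Ezh1 was 5.004, 4.08 and 4.01 in the knockout, against 2.47, 2.13 and 2.13 in WT, and the groups did not overlap.

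Of 27 tested Polycomb partners, 1 rose, 1 fell and 25 did not pass the test, against 5.09% higher and 4.58% lower over all genes tested. Their median log2 fold change was 0.03. The riser was Phf19, an accessory subunit that guides PRC2 to its targets, with 37.9 ± 3.70 CPM in the knockout and 17.1 ± 3.98 CPM in WT (SD, n = 3 each), and a log2 difference of 1.14 ± 0.20 (SE, edgeR adjusted p = 0.00105). Cbx7, a reader of the trimethyl mark in the other Polycomb complex, PRC1, fell to 35.8 ± 9.97 CPM in the knockout, against 53.8 ± 2.19 CPM in WT (edgeR adjusted p = 0.0433). Its log2 fold change was -0.59 ± 0.18 (SE), and between -0.81 and -0.42 with 1 library left out. The Cbx7 call was lost without knockout replicate 2 (-0.42) or 3 (-0.57), without WT replicate 1 (-0.62), 2 (-0.59) or 3 (-0.56), and without TMM scaling (-0.55). The histone-binding subunits Rbbp4 and Rbbp7 had log2 fold changes of 0.37 ± 0.12 and 0.28 ± 0.11 (SE, edgeR adjusted p = 0.0556 and 0.122). Rbbp4 was called without TMM scaling (0.41), with a stricter filter (0.37), with DESeq2 (0.37) and without knockout replicate 1 (0.43).

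**Figure D2:**
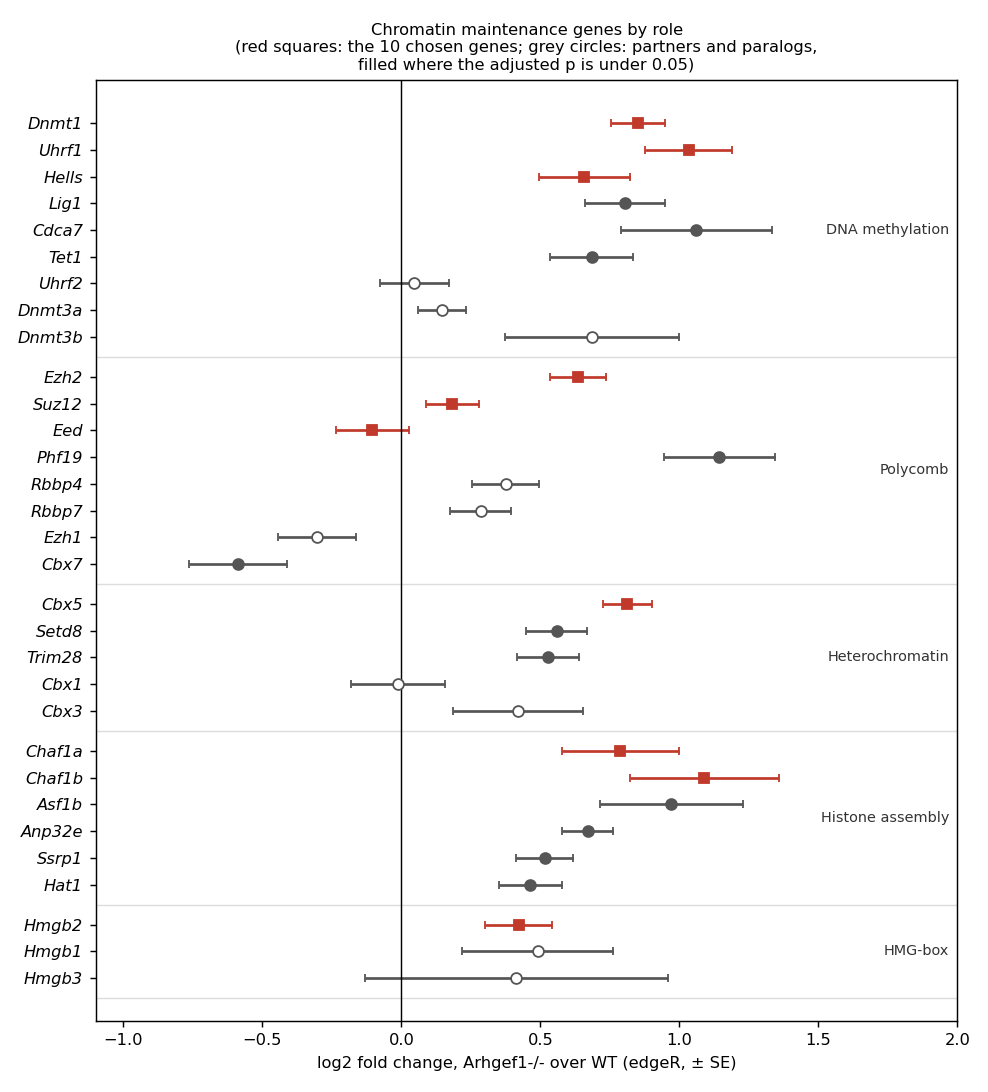
Log2 fold changes, Arhgef1-/- over WT, with the SE, for the 10 genes (red squares) and for partners and paralogs of the same machinery (grey circles, filled where the edgeR adjusted p was under 0.05), in blocks by role. Ezh2 lies at 0.63 while Suz12 and Eed lie near 0, Dnmt1 and Uhrf1 lie right of Dnmt3a and Uhrf2, and Dnmt3b lies at 0.68 with a wide SE.

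Cbx5 was called higher, while the other HP1 genes, Cbx1 and Cbx3, were not called. Cbx5 (ENSMUSG00000009575.14, mm10 chr15:103191544-103239816) had 443, 514 and 464 CPM in the knockout, against 275, 287 and 247 CPM in WT. The groups were separated by a gap wider than the spread within either, with a log2 fold change of 0.81 ± 0.09 (SE). Cbx1, for HP1 beta, averaged 33.7 ± 3.46 CPM in the knockout and 34.0 ± 4.79 CPM in WT, with a log2 difference of -0.01 ± 0.17 (SE, edgeR adjusted p = 0.979). The sign of that value flipped without TMM scaling (0.02), without knockout replicate 3 (0.07) and without WT replicate 3 (0.09). Cbx3, for HP1 gamma, averaged 16.2 ± 1.35 CPM in the knockout and 12.1 ± 0.71 CPM in WT (log2 fold change 0.42, edgeR adjusted p = 0.308). The ratio of Cbx5 to Cbx1 per kilobase was 5.81, 6.94 and 7.39 in the knockout, against 4.50, 3.96 and 3.04 in WT, with every knockout library above every WT library. Its mean log2 difference was 0.82, against 0.39 for the ratio of Cbx5 to Cbx3, which also did not overlap between the groups. Cbx5 too was chosen with the contrast known, so these ratios are descriptions.

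Of the 16 tested heterochromatin partners, 2 rose and 14 were not called, and their median log2 fold change was -0.00272. Setd8, which places a single methyl group on histone H4 lysine 20, averaged 171 ± 9.82 CPM in the knockout and 116 ± 14.5 CPM in WT (edgeR adjusted p = 0.00299). Trim28, the corepressor known as KAP1, which binds HP1 proteins, averaged 106 ± 3.86 CPM in the knockout and 73.3 ± 1.53 CPM in WT (edgeR adjusted p = 0.00512).

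Both replication-specific subunits of CAF-1 were higher in the knockout, at low levels. Chaf1a (ENSMUSG00000002835.9, mm10 chr17:56040439-56072289), the large subunit that binds PCNA, had 37.8, 43.7 and 43.7 CPM in the knockout, against 15.4, 26.8 and 30.6 CPM in WT. WT replicate 1 was far below the other two WT libraries, and without it the log2 fold change was 0.54, against 0.79 ± 0.21 (SE) with all libraries. The Chaf1a call was lost without knockout replicate 2 (0.75), knockout replicate 3 (0.76), WT replicate 1 or WT replicate 2 (0.87). Of the stretches of 50 bases in Chaf1a transcripts, 49.7% were also found in transcripts of the overlapping gene Ubxn6, so its level depends on how the counting treated that overlap. Chaf1b (ENSMUSG00000022945.12, mm10 chr16:93883901-93906115), the middle subunit, had 13.2, 21.3 and 16.0 CPM in the knockout, against 7.09, 8.41 and 8.26 CPM in WT. The groups did not overlap, and its log2 fold change of 1.09 ± 0.27 (SE) was the largest of the 10 and had the largest SE. The Chaf1b call was lost without knockout replicate 2 (0.88) or WT replicate 1 (1.02). The ratio of the subunits Chaf1a and Chaf1b per kilobase overlapped between the groups, at 1.52, 1.083 and 1.44 in the knockout and 1.15, 1.69 and 1.96 in WT.

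Of 20 tested histone chaperones and assembly factors, 5 rose and 15 were not called, at a median log2 fold change of 0.26. Of the 20, 11 had every knockout library above every WT library and 1 every knockout library below. Over all genes tested, these shares were 13.7% and 13.5%. Anp32e, a chaperone that removes the histone variant H2A.Z, averaged 544 ± 39.8 CPM in the knockout and 342 ± 38.8 CPM in WT (edgeR adjusted p = 1.34e-04). Ssrp1, a subunit of the histone chaperone FACT, averaged 222 ± 27.4 CPM in the knockout and 156 ± 5.82 CPM in WT (edgeR adjusted p = 0.00326). Asf1b, the ASF1 paralog known from dividing cells, which hands new H3 and H4 to CAF-1, averaged 21.2 ± 4.81 CPM in the knockout and 10.8 ± 2.60 CPM in WT (edgeR adjusted p = 0.0222). Its log2 fold change was 0.97 ± 0.26 (SE), and the call was lost without knockout replicate 2 (0.81), WT replicate 2 (0.83) or WT replicate 3 (0.93). Its paralog Asf1a averaged 29.1 CPM in the knockout and 37.2 CPM in WT (log2 fold change -0.35 ± 0.16, SE, edgeR adjusted p = 0.213). Of the 50-base stretches of Asf1a transcripts, 43.1% also occurred in Mcm9 transcripts, against 0% shared for Asf1b, so the level of Asf1a is uncertain. Asf1a, Baz1b, Tet2 and Tet3 were named after their values were seen. Baz1b, a subunit of chromatin remodellers, was higher by 0.29 ± 0.08 on the log2 scale (SE, edgeR adjusted p = 0.0228), with the call lost without knockout replicate 2 (0.29) or 3 (0.28) and without WT replicate 2 (0.26) or 3 (0.30). Hat1, which acetylates new histone H4, averaged 156 ± 14.7 CPM in the knockout and 113 ± 12.8 CPM in WT (edgeR adjusted p = 0.0146). The Hat1 log2 fold change was 0.46 ± 0.11 (SE), and its call was lost without knockout replicate 2 (0.40) or WT replicate 2 (0.37).

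Hmgb2 (ENSMUSG00000054717.7, mm10 chr8:57511907-57515999) had 177, 220 and 172 CPM in the knockout, against 133, 126 and 166 CPM in WT. The lowest knockout library was only slightly above WT replicate 3, and knockout replicate 2 stood apart from the other two. The log2 fold change was 0.42 ± 0.12 (SE), the smallest of the 8 called genes, and its call was lost without knockout replicate 2 (0.30), WT replicate 1 (0.38) or WT replicate 2 (0.35). Its relatives did not pass the test. Hmgb1 averaged 14.1 ± 2.07 CPM in the knockout and 9.98 ± 2.53 CPM in WT (log2 fold change 0.49, edgeR adjusted p = 0.308). Hmgb3 averaged 2.80 CPM in the knockout and 2.12 CPM in WT (log2 fold change 0.41, edgeR adjusted p = 0.727). Both log2 fold changes were close to the 0.42 of Hmgb2. The ratio of Hmgb2 to Hmgb1 per kilobase overlapped between the groups, at 18.4, 25.8 and 24.1 in the knockout and 17.3, 23.2 and 34.6 in WT. Of the 50-base stretches of their transcripts, 18.7% in Hmgb2, 22.7% in Hmgb1 and 25% in Hmgb3 also occurred in transcripts of other genes, which could have split or dropped their reads, so these levels are uncertain. The same holds for 15.4% of the stretches of Uhrf1, and for 5.82% or less of those of the other members apart from Chaf1a. Of 6 tested HMG genes, none was called by edgeR, 2 had an unadjusted p under 0.05, DESeq2 called 1 and limma-voom none. The median log2 fold change of these HMG genes was 0.45, and 5 of the 6 had a positive value.

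Over all 5 partner lists, 11 of 87 tested genes rose, 1 fell and 75 did not pass the test, and the median log2 fold change was 0.11. For these and for each partner list above, the shares over all genes tested were 5.09% higher and 4.58% lower. DESeq2 called 18 of the partner genes higher. The lists were drawn up by role, with results of these libraries known.

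**Figure D3:**
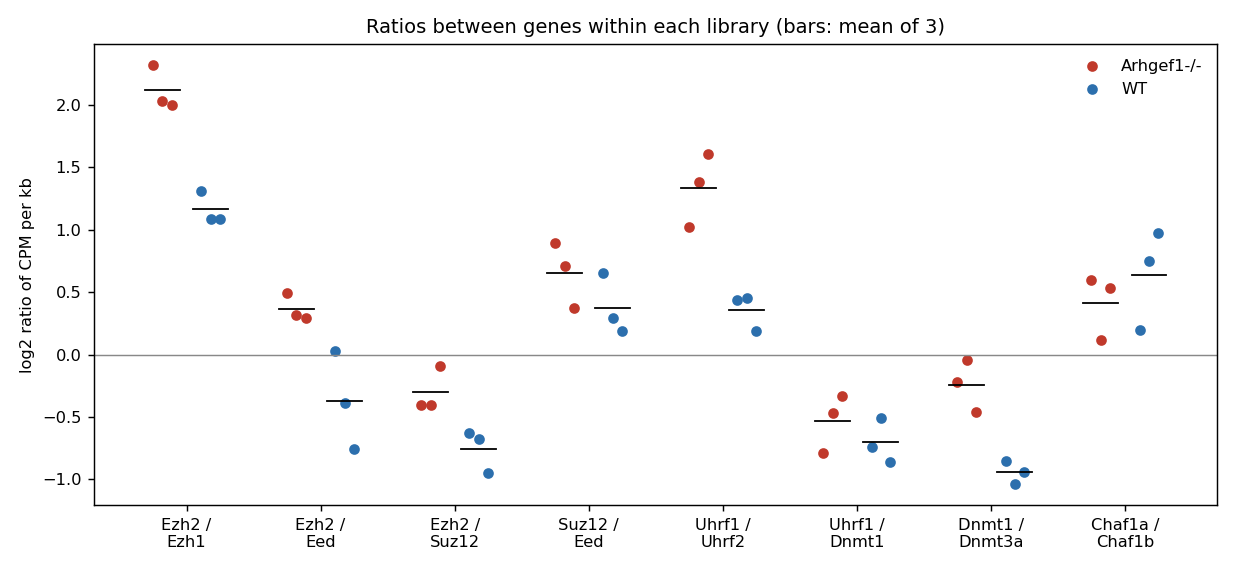
Log2 ratios of CPM per kilobase between pairs of genes inside each Arhgef1-/- library (red, left of each pair) and each WT library (blue, right), with a bar at the mean of 3. The groups are apart for Ezh2 over Ezh1, Eed or Suz12, for Uhrf1 over Uhrf2 and for Dnmt1 over Dnmt3a, and overlap for Suz12 over Eed, Uhrf1 over Dnmt1 and Chaf1a over Chaf1b.

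Levels between genes were compared as CPM per kilobase. In the knockout, Hmgb2 was the highest at 63.1 ± 8.83 CPM per kilobase (SD, n = 3), followed by Cbx5 at 52.6 ± 4.06, Suz12 at 40.2 ± 3.09, Dnmt1 at 33.2 ± 3.11 and Ezh2 at 32.8 ± 1.70. Eed at 25.5 ± 3.09 and Uhrf1 at 23.3 ± 4.81 CPM per kilobase came next, and Hells, Chaf1a and Chaf1b were far lower, at 5.91 ± 0.67, 4.71 ± 0.38 and 3.60 ± 0.88. Neighbours in this order whose libraries overlapped were Dnmt1 and Ezh2, Eed and Uhrf1, and Chaf1a and Chaf1b. In WT, Hmgb2 was again the highest at 47.1 ± 7.07 CPM per kilobase, followed by Suz12 at 35.4 ± 1.53, Cbx5 at 30.0 ± 2.27, Eed at 27.5 ± 4.57 and Ezh2 at 21.1 ± 2.23. Dnmt1 at 18.4 ± 0.74, Uhrf1 at 11.4 ± 1.63, Hells at 3.75 ± 0.33, Chaf1a at 2.74 ± 0.89 and Chaf1b at 1.69 ± 0.15 CPM per kilobase closed the order. The WT neighbours that overlapped were Cbx5 and Eed, Eed and Ezh2, Ezh2 and Dnmt1, and Chaf1a and Chaf1b. Cbx5 was above Suz12 in the knockout and below it in WT, and Dnmt1 and Ezh2 were on average above Eed in the knockout and below it in WT. The place of Chaf1a in both orders is uncertain, because 49.7% of its 50-base stretches were also found in Ubxn6 transcripts.

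The order of the libraries within each group was also counted over the 10 genes. The same counts were not made over all genes, so the order is not shown to be particular to the 10. The summed replisome genes had a similar order, at 1536, 1816 and 1734 CPM in knockout replicates 1, 2 and 3. Knockout replicate 2 was the highest of its group in 7 genes and knockout replicate 3 in the other 3, while knockout replicate 1 was the lowest in 8. In WT, the highest library was replicate 1 in 2 genes, replicate 2 in 3 and replicate 3 in 5, so no WT library led across the set. Within a group, the coefficient of variation ran from 5.19% (Ezh2) to 24.6% (Chaf1b) in the knockout and from 4.03% (Dnmt1) to 32.5% (Chaf1a) in WT. The 5 genes outside the set whose profile over the 6 libraries was nearest to the mean profile of the 10, by root mean square difference in centred log2 CPM among 8669 candidates, were Heatr3 (0.0352), Pa2g4 (0.0359), Zfp367 (0.0431), Bak1 (0.0515) and Emp3 (0.0604). Pa2g4 had 182, 226 and 215 CPM in the knockout, against 124, 132 and 140 CPM in WT, with the same low knockout replicate 1.

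Genes of the replication fork and of mitosis were higher in the same libraries. Of 31 replisome genes, 18 rose and 13 did not pass the test, at a median log2 fold change of 0.73, and their summed level was 1536 to 1816 CPM in the knockout and 1027 to 1072 CPM in WT. Pole, the catalytic subunit of the leading-strand polymerase, averaged 87.6 ± 3.95 CPM in the knockout and 41.2 ± 3.34 CPM in WT (edgeR adjusted p = 3.92e-05). Mcm2, a subunit of the replicative helicase, averaged 85.1 ± 7.09 CPM in the knockout and 37.9 ± 5.56 CPM in WT (edgeR adjusted p = 4.99e-05). Its fellow subunits Mcm6 and Mcm3 had log2 fold changes of 0.79 ± 0.11 and 0.83 ± 0.12 (SE, edgeR adjusted p = 1.59e-04 and 1.85e-04). Of 16 mitotic genes, 15 rose, with a summed level of 3498 to 4022 CPM in the knockout and 1612 to 2031 CPM in WT. For both lists, the shares over all genes tested were 5.09% higher and 4.58% lower. Mki67, the proliferation marker Ki-67, averaged 1641 ± 139 CPM in the knockout and 823 ± 78.8 CPM in WT, and the DNA topoisomerase Top2a and the mitotic motors Cenpe and Kif11 had log2 fold changes of 1.05 ± 0.10, 1.12 ± 0.11 and 1.10 ± 0.11 (SE). The part of these genes' shift in the values of the 10 genes was not tested.

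Set against the summed replisome list of the same library, the 10 genes differed in whether the groups overlapped. This was not tested, and the share of all genes without overlap on this scale was not counted. Counts of Hells were 2.59%, 2.65% and 2.30% of that sum in the knockout and 2.48%, 2.49% and 2.77% in WT, and Uhrf1, Cbx5, Ezh2 and Chaf1a likewise overlapped between the groups. Dnmt1, at 14.8%, 14.9% and 13.7% in the knockout and 13.6%, 13.3% and 12.2% in WT, lay slightly above in every knockout library, as did Chaf1b, at 0.856%, 1.17% and 0.924% in the knockout and 0.681%, 0.818% and 0.770% in WT. Suz12, Eed and Hmgb2 were lower relative to the sum in every knockout library. Eed was at 5.54%, 5.48% and 6.26% of the sum in the knockout, against 8.44%, 10.2% and 11.5% in WT. Suz12 was at 13.3%, 11.6% and 10.5% in the knockout, against 17.1%, 16.2% and 16.9% in WT. Hmgb2 was at 11.5%, 12.1% and 9.92% in the knockout, against 12.8%, 12.3% and 15.5% in WT, so its groups were barely apart.

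**Figure D4:**
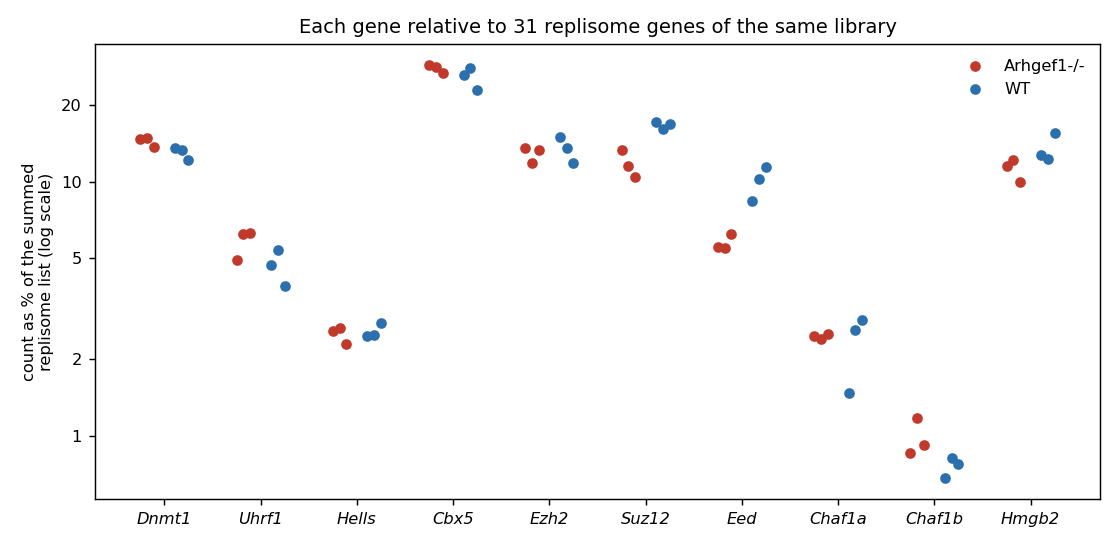
Count of each of the 10 genes as a percent of the summed counts of 31 replisome genes in the same library, on a log axis, for Arhgef1-/- (red, left) and WT (blue, right) libraries. Hells, Cbx5, Ezh2, Uhrf1 and Chaf1a overlap between the groups, while Suz12, Eed and Hmgb2 lie lower in every Arhgef1-/- library, Hmgb2 by a narrow gap.

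Some lists of cell type markers differed between the genotypes, and others did not. Of 17 macrophage markers, 14 fell and 3 did not pass the test, with a summed level of 298 to 467 CPM in the knockout and 815 to 1268 CPM in WT, and no marker of the list was at 0 in all libraries. Knockout replicate 1, the lowest of its group in most of the 10 genes, had the highest macrophage sum of the knockout. That was not particular to macrophages. It also had the highest knockout sum in the monocyte, cDC1 (249 CPM), T cell (151 CPM), plasmacytoid dendritic (222 CPM), B cell, neutrophil and NK cell lists. It did not in the plasma cell, erythroid and platelet lists, and its cDC2 sum was the lowest of the knockout. Of 5 tested monocyte markers, 3 (Csf1r, Lyz2 and Plac8) fell, with a summed level of 282 to 373 CPM in the knockout and 436 to 644 CPM in WT. Of 9 cDC1 markers, 2 (Cadm1 and Tlr11) fell, at 125 to 249 CPM in the knockout and 186 to 252 CPM in WT, and of 11 tested cDC2 markers, 5 (Sirpa, Cd4, Clec4a4, Cd209a and H2-Ab1) fell, at 10360 to 11230 CPM in the knockout and 12390 to 13760 CPM in WT. Of 4 tested T cell markers, 1 (Tcf7) rose, with a list sum of 85.1 to 151 CPM in the knockout and 75.0 to 94.6 CPM in WT. In the other 7 lists (plasmacytoid dendritic, neutrophil, B, plasma, NK, erythroid and platelet), edgeR called none of the 20 tested genes, 1 had an unadjusted p under 0.05, and DESeq2 and limma-voom called none. For each marker list, the shares over all genes tested were 4.58% lower and 5.09% higher, and the shortest lists hold too few genes for a comparison. The part of these markers in the values of the 10 genes was not tested.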

How the data were processed

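RNA was sequenced from 6 libraries, 3 Arhgef1-/- and 3 WT, grouped by their titles. The authors deposited raw read counts per gene symbol, and mm10, STAR, HTSeq and DESeq2 are listed in the submitters' processing notes. The sources used here give no tool versions, annotation or strand setting, so reads of overlapping genes cannot be told apart. From these counts, edgeR 4.0.16 (R 4.3.3) was run with TMM scaling (factors 0.977 to 1.02) and filterByExpr, and its quasi-likelihood test was fitted over all genes with Benjamini-Hochberg adjustment and a threshold of 0.05. The common biological coefficient of variation was 0.189. The procedure was tested on simulated data. CPM used the TMM-scaled library sizes, SE was the size of the log2 fold change over the square root of F, and CPM per kilobase used merged exon lengths of GENCODE vM21 (mm10). Shared 50-base stretches were counted after the data were seen.

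The 10 genes, the partner, replisome and mitotic lists and the marker lists were chosen with earlier results of these data known. Named genes were the 10, fixed paralogs and partners, Arhgef1, up to 4 called genes with the smallest p per list and direction, and the 5 genes nearest in profile among those averaging 3 or more in log2 CPM. Alternatives changed the scaling (DESeq2 size factors, upper-quartile factors, or total counts with no TMM), the filter (none, or 5 CPM in 3 libraries) or the tool (DESeq2 1.42.0 or limma-voom 3.58.1), added a replicate block, or left out 1 library.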

Additional observations from a re-analysis of the deposited data

How the results depend on the processing

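With 1 library left out, 310 to 583 genes were higher and 264 to 489 lower in the knockout, against 586 and 527 with all 6. The fewest higher calls came without WT replicate 2 and the fewest lower calls without WT replicate 1. Of the 10 chosen genes, 4 to 8 were then called higher, with 4 without knockout replicate 2 or WT replicate 1, 5 without WT replicate 2 and 7 without knockout replicate 3. Dnmt1, Uhrf1, Cbx5 and Ezh2 were called in each of the 14 alternatives, and Suz12 and Eed were not called in any. The median log2 fold change of the 10 genes stayed between 0.67 and 0.78. Partner genes called higher were 7 to 14 with 1 library left out, with 7 without knockout replicate 2 or WT replicate 2, and 18 with DESeq2, against 11. Partner genes called lower were 0 to 1 with 1 library left out and 0 without TMM scaling, against 1, Cbx7. Among named genes, directions turned only in values near 0. With 1 library left out, the log2 fold change ran from -0.220 to 0.0211 for Eed, from -0.0435 to 0.103 for Uhrf2 and from -0.116 to 0.0878 for Cbx1, and that of Cbx1 was 0.0194 without TMM scaling.

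With the replicate number as a block, 496 genes were higher and 449 lower, 7 of the 10 genes were called and Hmgb2, at a log2 fold change of 0.42, was not. Same-numbered libraries did not deviate together (correlations of 0.038, -0.033 and -0.033). With so few libraries, these values cannot show whether same-numbered libraries shared anything beyond the number. Counts per library were the lowest of the 10 genes in Chaf1b. The cause of each change was not tested.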
